A study of Cucumis sativus with 4 samples.

Results

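For each gene read in both organs of young cucumber plants, the response to low nitrogen in the leaf was set against the response of the same gene in the root. A gene entered if its mean over the 4 libraries was at least 5 RPKM (reads per kilobase of gene and per M reads, where M is mega) and if at least 1 library of each organ had at least 5 RPKM. Of 18665 genes in the deposited table, 10648 reached the mean, 1637 of these stayed below 5 RPKM in both leaf libraries and 941 in both root libraries, which left 8070 genes. The organ difference of a gene is the log2 ratio of low nitrogen to control in leaf minus the same ratio in root. A pseudocount of 1 RPKM was added to every value and each ratio was centred on its median over the 8070 genes. A positive organ difference means that the leaf ratio lay above the root ratio, and a negative one that the root ratio lay above the leaf ratio.

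The 4 libraries came from leaves and roots of cucumber (Cucumis sativus), a crop of the gourd family, at an age of 28 days. Low nitrogen plants received 1 mM nitrate and control plants 5 mM nitrate. The low nitrogen solution was balanced with potassium sulfate, potassium chloride and calcium chloride, so that it also held more sulfate and chloride than the control solution. Plants grew in pots of sand, and the number of plants behind each sample is not stated. The groups were low nitrogen leaf, control leaf, low nitrogen root and control root, with 1 library of whole tissue in each. No difference below has a replicate check, and variation between plants is not separated from the solution. In such bulk tissue, fewer cells of a type and less RNA per cell cannot be told apart.

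Nitrate enters a plant through the root, where transporters load it and where part of it is reduced to nitrite and ammonium, and the rest travels in the xylem to the leaf. Leaves reduce most of the nitrate that reaches them with reducing power from photosynthesis, and they hold much of the plant's nitrogen in chlorophyll-binding proteins and Rubisco. Nitrate is also a signal that represses and induces its own transport and assimilation genes, and both organs adjust growth to the supply.

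The organ labels were checked against markers. All 6 leaf markers found in the table (homologues of RCA, LHCB4.1, LHCB6, PSAD1, PRK and CA1) were higher in both leaf libraries, with summed levels of 10839 RPKM in low nitrogen leaf and 22477 RPKM in control leaf, against 47.8 RPKM in low nitrogen root and 66.4 RPKM in control root. All 5 root markers found (homologues of SHR, SCR, MYB36, CYP86A1 and SKOR) were higher in both root libraries, with summed levels of 16.6 RPKM in low nitrogen leaf and 11.1 RPKM in control leaf, against 142 RPKM in low nitrogen root and 139 RPKM in control root. The reads behind the values were estimated from the spacing of the RPKM values, as the smallest depth that fits. They numbered 2.74 M in low nitrogen leaf, 2.93 M in control leaf, 3.98 M in low nitrogen root and 4.23 M in control root.

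Most genes had an organ difference within 1 log2 unit of 0. The organ difference was at least 1 for 579 genes (7.17% of 8070) and at most -1 for 743 genes (9.21%), and it passed 1 in either direction for 16.4%. It was at least 2 for 53 genes (0.657%) and at most -2 for 111 genes (1.38%). The middle 90% of genes lay between -1.30 and 1.15, the median was -0.02 and the standard deviation over genes 0.78. The genes next to the threshold had organ differences of 1.0002 and 0.9985 on the high side and -1.0004 and -0.9989 on the low side. The threshold thus falls inside a continuous range of values.

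The split between the directions rests on the centring. Before centring, the median log2 ratio was 0.36 in leaf and 0.02 in root, and the median organ difference of the values as deposited was 0.32. Over the 8070 genes, the deposited RPKM was higher in low nitrogen than in control for 72.1% in leaf and for 51.5% in root, and counts of directions are set against these shares. Without centring, 1301 genes were at or above 1 and 372 at or below -1, so that the positive share of these genes was 77.8% in place of 43.8%. The photosystem and light harvesting genes, which are among the abundant messages of a leaf, held 12.7% of the RPKM sum in low nitrogen leaf and 24.0% in control leaf. In root they held 0.0776% in low nitrogen and 0.0868% in control. Their part in the shift of the leaf median was not tested.

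Past an absolute centred ratio of 1, leaf had 374 genes higher in low nitrogen (4.63%) and 516 lower (6.39%), and root had 367 higher (4.55%) and 274 lower (3.4%). Across genes, which are not independent replicates, the leaf and root ratios had a Pearson correlation of 0.24 and a Spearman correlation of 0.21. Of the genes lower in leaf, 82 were also lower in root, which is 15.9% of the leaf genes and 29.9% of the root genes. Another 31 were higher in both organs, 8.29% of the leaf genes and 8.45% of the root genes. In opposite directions, 27 genes were lower in leaf and higher in root, 5.23% of the leaf genes (4.55% of all genes were higher in root). Another 4 were higher in leaf and lower in root, 1.07% of the leaf genes (3.4% of all genes were lower in root). Of the 579 genes with an organ difference of at least 1, 219 were past 1 in leaf alone, 107 in root alone and 243 in neither organ. Of the 743 at or below -1, 239 were past 1 in leaf alone, 195 in root alone and 274 in neither. Many organ differences thus add up from smaller opposite shifts in both organs.

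**Figure D1:**
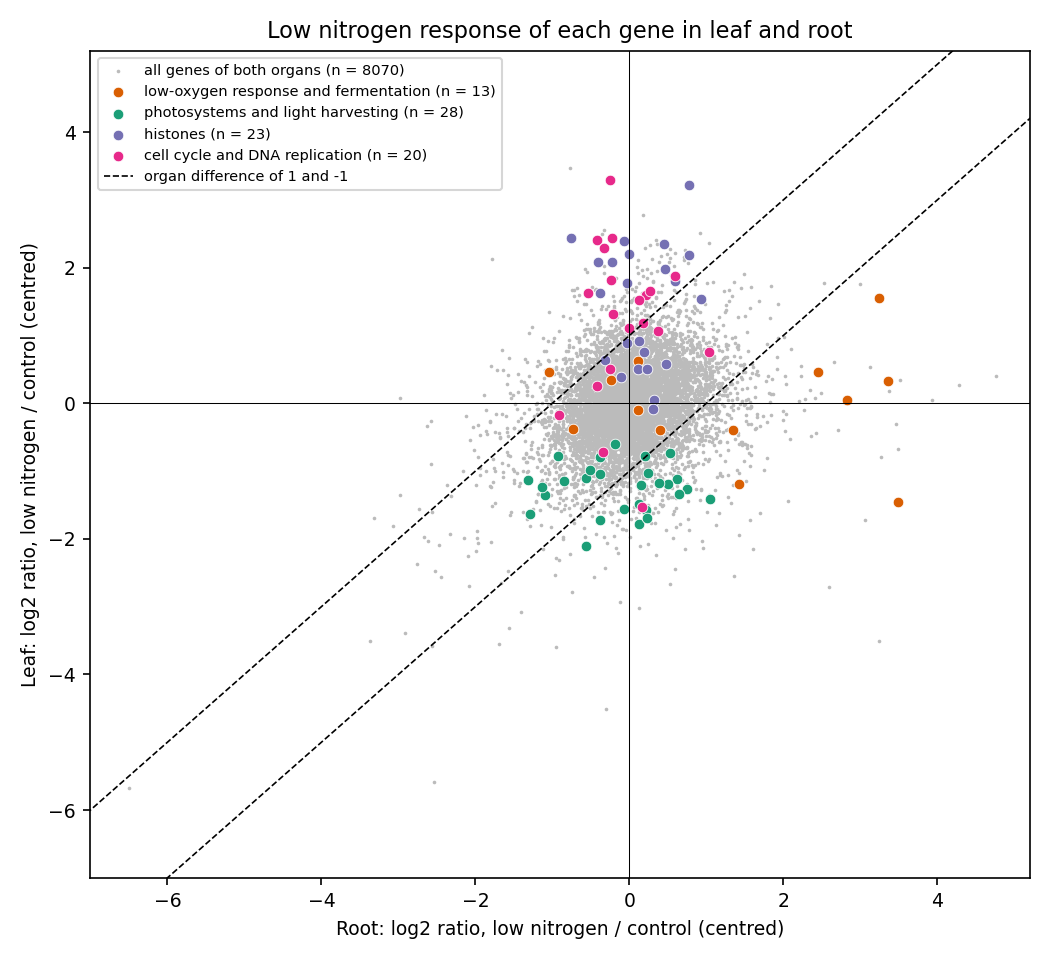
Each of the 8070 genes is plotted by its centred log2 ratio of low nitrogen to control in root (horizontal axis) and in leaf (vertical axis), and the dashed lines mark organ differences of 1 and -1. Of the cell cycle genes 13 of 20 lie on or above the upper line, and of the photosystem genes 16 of 28 lie on or below the lower line.

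Because a gene could pass the filter through a single library, some members had to differ. In leaf, 878 genes reached 5 RPKM in low nitrogen alone and 204 in control alone, and in root 303 in low nitrogen alone and 194 in control alone. All 4 libraries reached 5 RPKM for 6605 genes, which include 899 of the 1322 genes past 1 in either direction. Whole reads could be recovered for 87.1% of the 8070 genes, and for 52.8% after shuffling. They are the smallest counts that fit a gene length from 100 bases up to the deposited one, so the true counts may be larger. All read numbers and intervals given here rest on these estimates. From these reads, an exact 95% interval was computed for organ differences of at least 0.5 in absolute value, here called the counting interval. It uses no pseudocount, covers counting error only and need not be centred on the printed organ difference. It lay above 0 for 438 of the 480 genes at or above 1 that had one, and below 0 for 576 of the 619 genes at or below -1. These genes were chosen past 1 from the same values, so these counts were largely fixed in advance.

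Genes that are mainly leaf genes more often had a negative organ difference. Among 689 genes whose leaf level was at least 2 log2 units above their root level (mean of both treatments, centred), 21.5% were at or below -1 and 6.68% at or above 1. Among 417 genes with the root level more than 2 log2 units above the leaf level, these shares were 14.4% and 12.2%. In the 5005 genes within 1 log2 unit they were 6.77% and 6.27%. By mean level, the share at or below -1 was 8.69% for genes of 5 to 10 RPKM and 11.9% for genes of at least 100 RPKM, while the share at or above 1 was 8.39% and 6.24%. The share at or below -1 was thus highest in genes read mainly in leaf, and the share at or above 1 in genes read mainly in root.

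**Figure D2:**
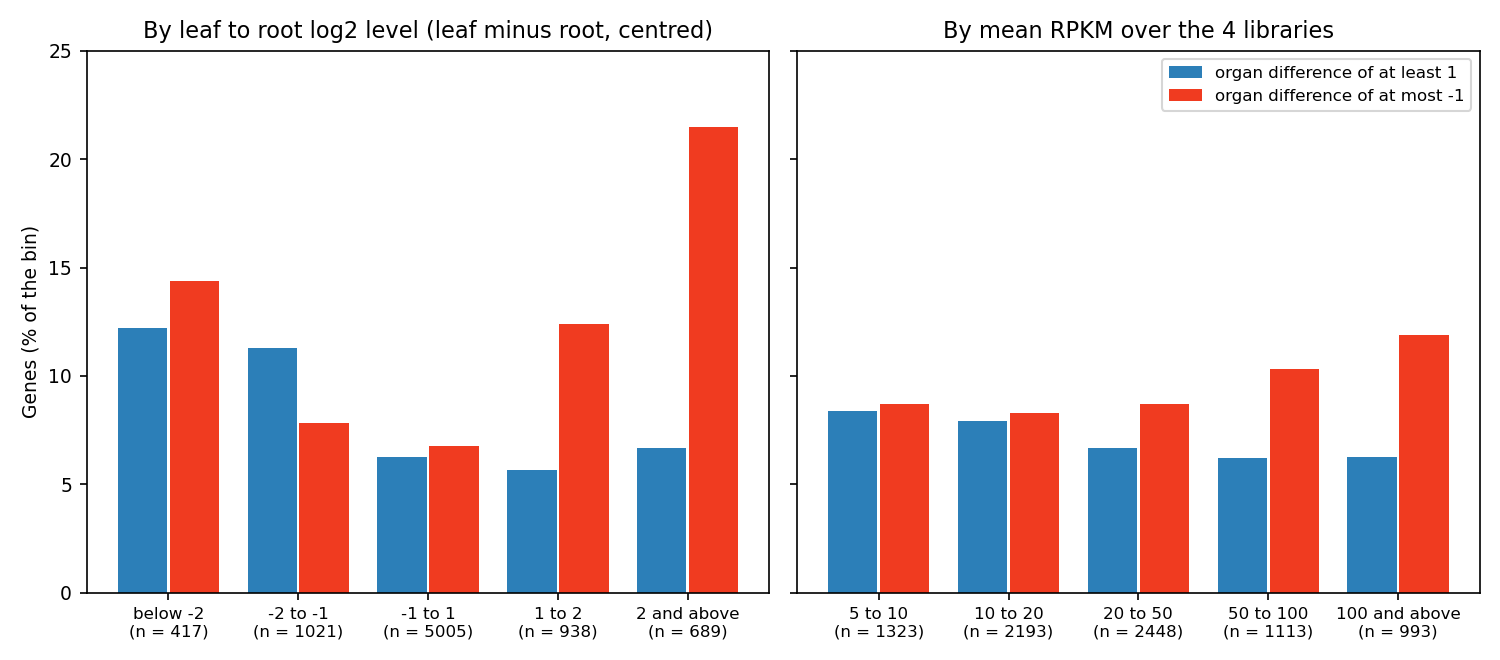
Bars give the percentage of genes with an organ difference of at least 1 and of at most -1, in 5 bins of the leaf to root log2 level (left) and 5 bins of mean RPKM (right). The bin of genes with at least 2 log2 units more in leaf has 21.5% at or below -1 and 6.68% at or above 1.

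Of 29 gene lists, defined by Arabidopsis homologue IDs, 27 had at least 5 of the 8070 genes. Past 1 were the medians of 4 of the 27. Cell cycle and DNA replication genes (1.33) and histones (1.22) stood on the side of the leaf, and photosystem and light harvesting genes (-1.30) and low-oxygen genes (-1.68) on the other side. Over the 9 alternatives the medians ran from 0.70 to 1.67 for cell cycle genes, from 0.96 to 1.56 for histones, from -1.34 to -0.56 for photosystem genes and from -1.84 to -1.24 for low-oxygen genes. The low-oxygen median alone of these 4 stayed past 1 throughout. With a filter of 20 RPKM, however, the low-oxygen list kept 4 genes and the cell cycle list 3, fewer than the 5 asked of a list. Histones were at 0.96 when copies were summed over homologues, and photosystem genes at -0.96 without centring. Of the rest, 21 lay between -0.5 and 0.5, against a median of -0.02 over all genes. Without centring every median was 0.34 higher, which turned 9 small negative medians positive: those of ammonium, nitrogen salvage, phosphate, sulfate, iron, ethylene, cytokinin, phenylpropanoid and potassium genes.

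**Figure D3:**
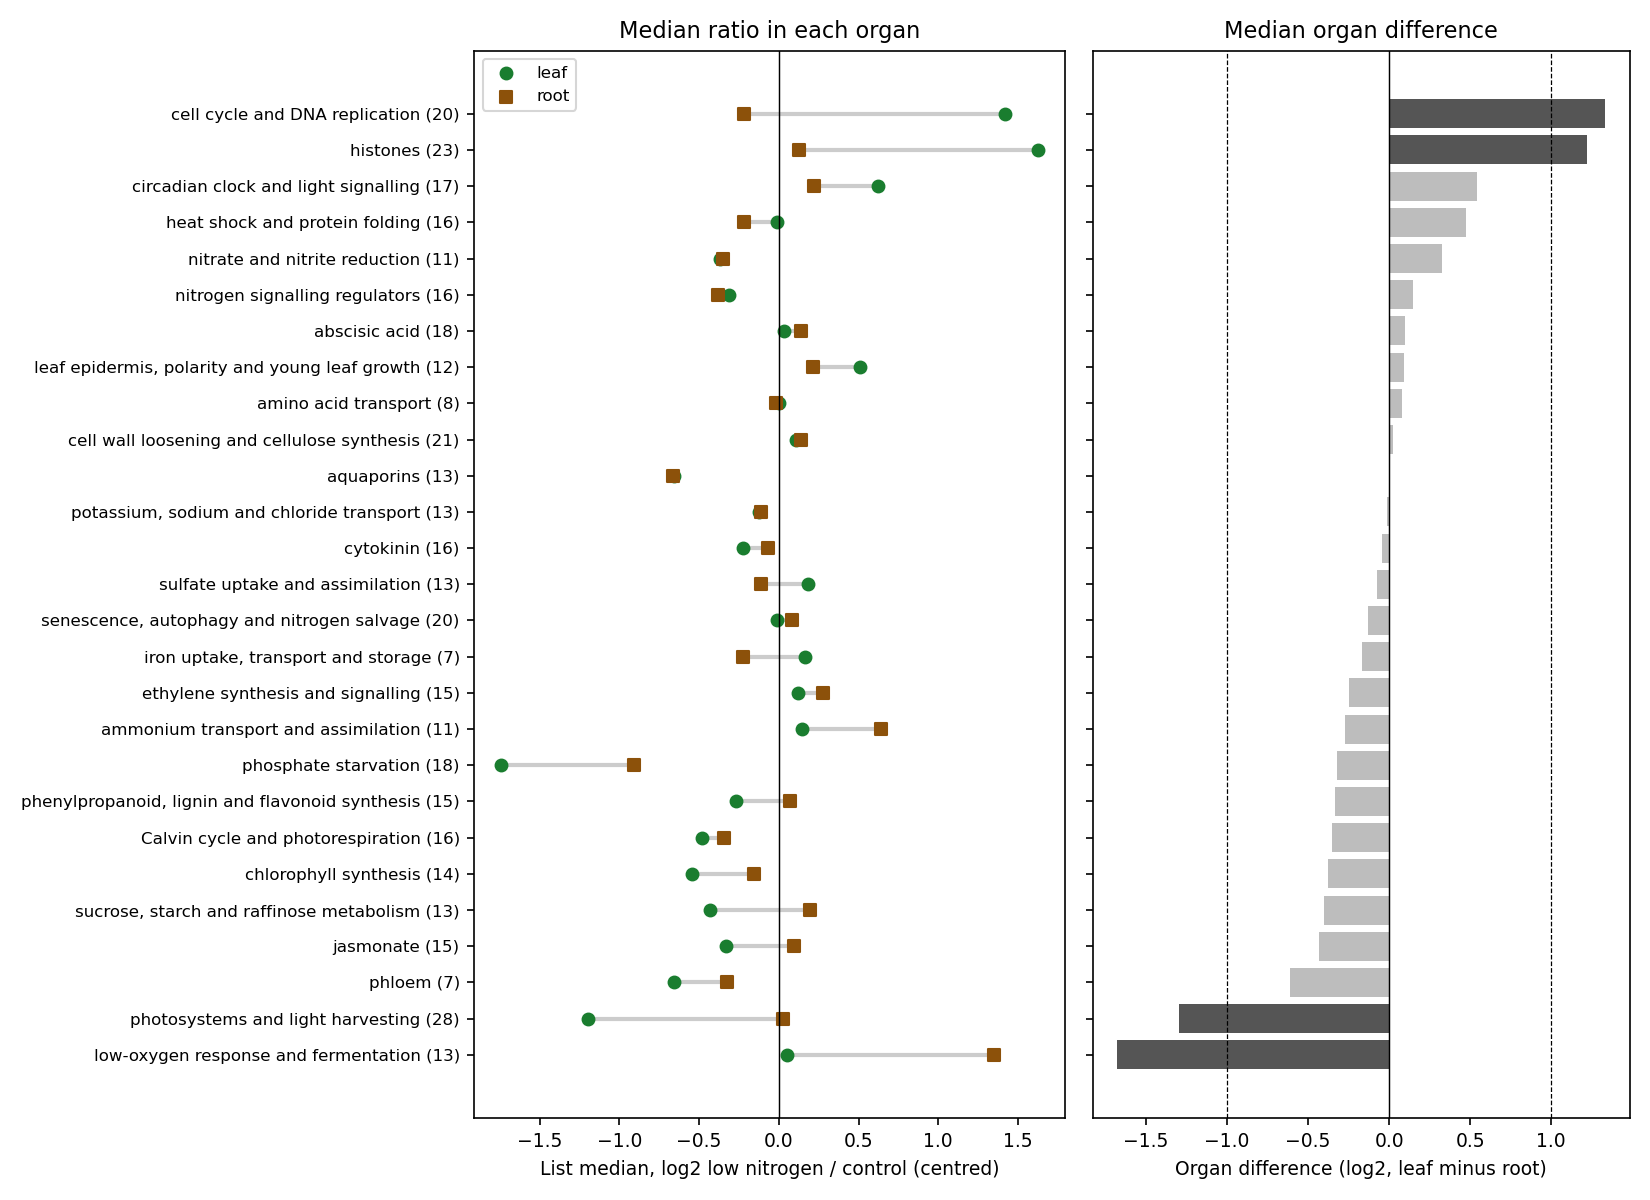
The left panel gives the median centred log2 ratio of low nitrogen to control of each list in leaf (circles) and root (squares), and the right panel the median organ difference, with the number of genes in brackets. Medians past 1, drawn dark, are 1.33 for cell cycle genes, 1.22 for histones, -1.30 for photosystem genes and -1.68 for low-oxygen genes.

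Most genes of dividing cells were higher in low nitrogen leaf, while in root 9 of 20 were higher (51.5% of all genes). Of 20 cell cycle and DNA replication genes, 13 had an organ difference of at least 1 (7.17% over all genes) and 1 of at most -1 (9.21%). Their median centred ratio was 1.42 in leaf and -0.22 in root. A higher RPKM in low nitrogen leaf than in control leaf was read for 18 of 20 (72.1% of all genes). The median level was 15.3 RPKM in low nitrogen leaf and 3.99 RPKM in control leaf, against 13.5 RPKM in low nitrogen root and 15.5 RPKM in control root. The low library was thus control leaf, where 12 of the 20 genes were below 5 RPKM, and such genes entered through low nitrogen leaf. Restricted to genes with at least 5 RPKM in all 4 libraries, the list kept 7 genes and a median of 0.73, and with a pseudocount of 5 RPKM the median was 0.70.

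CYCA1;1 (AT1G44110), an A-type cyclin of the mitotic cycle, had 30.03 RPKM in low nitrogen leaf and 1.48 RPKM in control leaf, against 10.9 RPKM in low nitrogen root and 13.0 RPKM in control root. Its organ difference was 3.54 (counting interval 3.18 to 5.48). CYCB1;2 (AT5G06150), a B-type cyclin that acts at mitosis, had 12.1 RPKM in low nitrogen leaf and 0.88 RPKM in control leaf, against 30.1 RPKM in low nitrogen root and 34.8 RPKM in control root, an organ difference of 2.67 (counting interval 2.32 to 5.34). Both cyclins had their lowest level in control leaf, with 9 and 5 recovered reads there. The D-type cyclin CYCD3;1 (AT4G34160), which links growth signals to the cell cycle, had 3 copies with organ differences of 2.82, 0.70 and -0.28. The copy on scaffold02135 had 27.1 RPKM in low nitrogen leaf and 3.13 RPKM in control leaf, against 10.4 RPKM in low nitrogen root and 14.0 RPKM in control root. CYCB2;4 (AT1G76310) had 8.97 RPKM in low nitrogen leaf and 0.59 RPKM in control leaf, against 8.98 RPKM in low nitrogen root and 11.4 RPKM in control root, an organ difference of 2.62. Among kinases, CDKB1;2, a cyclin-dependent kinase of the plant-specific B type, had 21.6 RPKM in low nitrogen leaf and 3.98 RPKM in control leaf, against 19.98 RPKM in low nitrogen root and 23.4 RPKM in control root (2.07). CDKA;1, the kinase that is active throughout the cycle, did not share this pattern, with 33.2 RPKM in low nitrogen leaf and 43.1 RPKM in control leaf, against 32.4 RPKM in low nitrogen root and 40.9 RPKM in control root (-0.38). KNOLLE (SYP111), the syntaxin of the forming cell plate, had an organ difference of 2.16, and the replication licensing factor MCM2 1.124. The exception below -1 was CYCD5;1, with 2.28 RPKM in low nitrogen leaf and 6.39 RPKM in control leaf, against 11.53 RPKM in low nitrogen root and 9.98 RPKM in control root (-1.70).

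Histones, the proteins that package newly made DNA, gave the same picture at higher levels. All 23 histone genes had a higher RPKM in low nitrogen leaf than in control leaf (72.1% of all genes). Of them, 12 had an organ difference of at least 1 (52.2%, against 7.17% of all genes), while 0 were at or below -1 (9.21%). The median level was 200.3 RPKM in low nitrogen leaf and 66.7 RPKM in control leaf, against 180 RPKM in low nitrogen root and 143 RPKM in control root. All but 1 of the 23 genes had at least 5 RPKM in every library. Of the counting intervals, computed only for the larger organ differences, 16 lay above 0. HTA12 (AT5G02560) on scaffold03837, an H2A histone, had 153 RPKM in low nitrogen leaf and 21.2 RPKM in control leaf, against 54.1 RPKM in low nitrogen root and 90.9 RPKM in control root. Its organ difference of 3.20 (counting interval 2.69 to 3.85) was the largest of the list. Its other copies had 0.92 and -0.27.

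The histone variants differed among themselves. The 5 homologues of AT5G65360, which encodes the replication-coupled histone H3.1, had organ differences between 1.81 and 2.498. On scaffold00551 one copy had 203 RPKM in low nitrogen leaf and 36.5 RPKM in control leaf, against 104 RPKM in low nitrogen root and 136 RPKM in control root. Another had 126 RPKM in low nitrogen leaf and 9.57 RPKM in control leaf, against 149.7 RPKM in low nitrogen root and 86.0 RPKM in control root. The 2 homologues of AT5G10980, for the replacement variant H3.3 that is also made outside DNA replication, had organ differences of -0.38 and 0.28. The more abundant of them had 1682 RPKM in low nitrogen leaf and 1387 RPKM in control leaf, against 1428 RPKM in low nitrogen root and 1142 RPKM in control root. The 7 histone H4 homologues (AT5G59970) spread from 0.10 to 2.47. Copies of one histone are close in sequence and may share reads, because the treatment of reads that match several genes is not stated.

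Genes of other leaf cell types and of young leaf growth are given beside these lists. Of 12 genes for leaf epidermis, polarity and young leaf growth, 2 had an organ difference of at least 1 (16.7%, against 7.17% of all genes). For 0 of these genes it was at most -1 (9.21% of all genes), and the median was 0.09. Their summed level over all copies in the table was 980 RPKM in low nitrogen leaf and 593 RPKM in control leaf, against 317 RPKM in low nitrogen root and 281 RPKM in control root. PHB-1D (PHABULOSA, AT2G34710), which sets the upper side of a leaf, had 11.46 RPKM in low nitrogen leaf and 3.98 RPKM in control leaf, against 31.6 RPKM in low nitrogen root and 38.3 RPKM in control root (1.26). TCP2 (AT4G18390), a transcription factor of leaf growth, had 6.90 RPKM in low nitrogen leaf and 2.69 RPKM in control leaf, against 4.52 RPKM in low nitrogen root and 6.41 RPKM in control root (1.19), and TCP14 had -0.78. GIF1, a coactivator of leaf cell proliferation, was higher in low nitrogen in both organs, with 70.7 RPKM in low nitrogen leaf and 29.6 RPKM in control leaf, against 23.1 RPKM in low nitrogen root and 8.97 RPKM in control root (-0.38). The part of these cell types in the histone and cell cycle values was not tested.

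**Figure D4:**
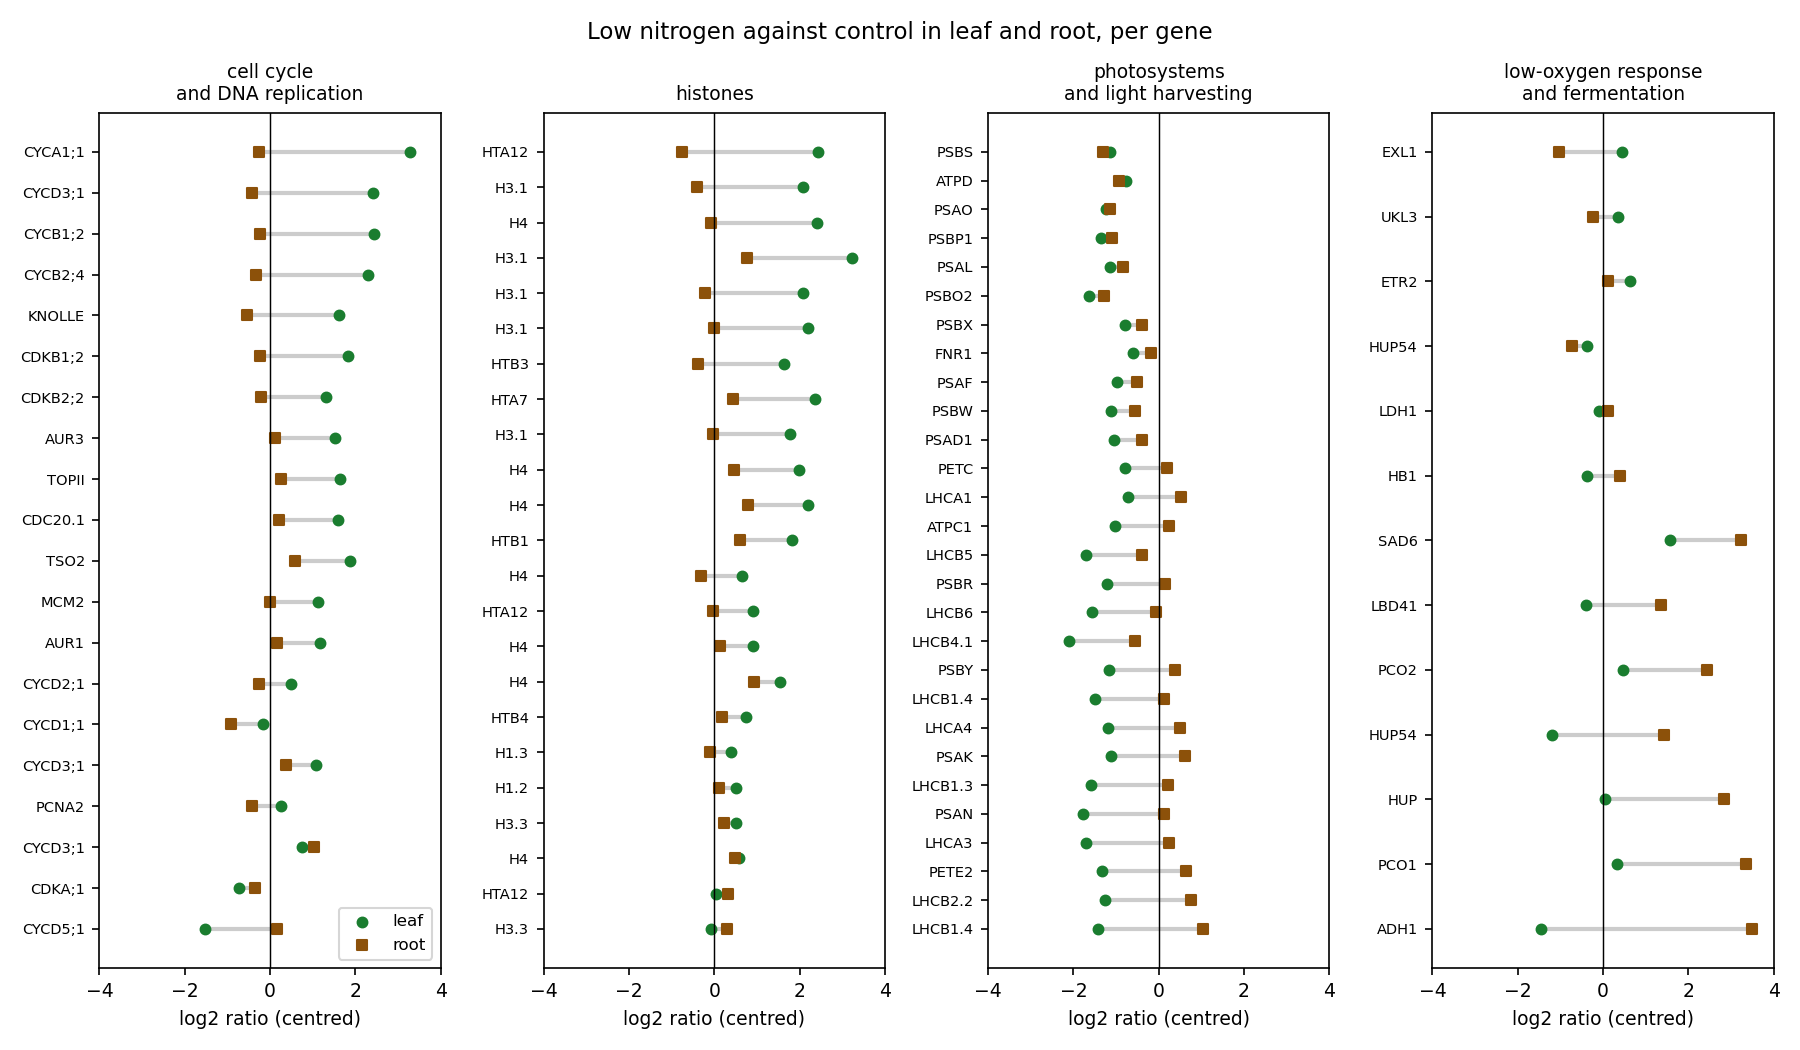
Centred log2 ratios of low nitrogen to control in leaf (circles) and root (squares) for each gene of 4 lists, ordered by organ difference, with list names as labels and copies drawn as separate lines. CYCA1;1 has 3.29 in leaf and -0.25 in root, and alcohol dehydrogenase (ADH1) has -1.46 in leaf and 3.50 in root.

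Photosystem and light harvesting genes were lower in low nitrogen leaf and had no common direction in root. All 28 genes had a lower RPKM in low nitrogen leaf than in control leaf, whereas 72.1% of all genes had a higher one. In root, 14 of 28 had a higher RPKM in low nitrogen than in control (51.5% of all genes). The organ difference was at most -1 for 16 genes (9.21% over all genes) and at least 1 for 0 (7.17%). The counting interval, computed only for the larger organ differences, lay below 0 for 12 genes. The median centred ratio was -1.20 in leaf and 0.03 in root. The median organ difference was -1.30, and -0.56 among the 10 genes that passed a filter of 20 RPKM. The root levels were low, with a median of 11.2 RPKM in low nitrogen root and 10.7 RPKM in control root, against 1921 RPKM in low nitrogen leaf and 4334 RPKM in control leaf. Another 13 copies in the table stayed below 5 RPKM in both root libraries and did not enter.

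LHCB1.4 (AT2G34430, scaffold00542), a light-harvesting protein of photosystem II, had 11056 RPKM in low nitrogen leaf and 22999.6 RPKM in control leaf, against 6.53 RPKM in low nitrogen root and 2.6 RPKM in control root. Its organ difference of -2.46 (counting interval -3.89 to -1.66) rests in root on 26 reads in low nitrogen and 11 in control. LHCB2.2 (AT2G05070), of the same antenna, had 7578 RPKM in low nitrogen leaf and 14263 RPKM in control leaf, against 36.5 RPKM in low nitrogen root and 21.0 RPKM in control root (-2.01). PETE2 (AT1G20340), plastocyanin, the copper protein that carries electrons to photosystem I, had 6049.7 RPKM in low nitrogen leaf and 11969 RPKM in control leaf, against 8.40 RPKM in low nitrogen root and 4.93 RPKM in control root (-1.99). These antenna and carrier genes had lower levels in low nitrogen leaf and higher ones in low nitrogen root. Other members had organ differences near 0. PSBO2, of the oxygen-evolving complex, had 4410.2 RPKM in low nitrogen leaf and 10694 RPKM in control leaf, against 8.05 RPKM in low nitrogen root and 20.8 RPKM in control root (-0.35). PSAO of photosystem I had 1239 RPKM in low nitrogen leaf and 2268 RPKM in control leaf, against 14.6 RPKM in low nitrogen root and 32.8 RPKM in control root (-0.09). For these the root values were lower in low nitrogen as well.

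Other chloroplast lists had medians closer to 0. The 16 Calvin cycle and photorespiration genes had a median organ difference of -0.35. Of these, 2 were at or below -1 (12.5%, against 9.21% of all genes) and 1 at or above 1 (6.25%, against 7.17%). The homologue of AT3G14420, for the photorespiratory enzyme glycolate oxidase, had 63.9 RPKM in low nitrogen leaf and 272 RPKM in control leaf, against 57.8 RPKM in low nitrogen root and 71.5 RPKM in control root (-2.11). SGAT (AT2G13360), the peroxisomal serine-glyoxylate aminotransferase of the same pathway, had 2 copies that differed. The copy on scaffold00598 had 204 RPKM in low nitrogen leaf and 82.7 RPKM in control leaf, against 102 RPKM in low nitrogen root and 125 RPKM in control root (1.25). On scaffold01001 it had 229 RPKM in low nitrogen leaf and 369 RPKM in control leaf, against 9.73 RPKM in low nitrogen root and 12.6 RPKM in control root (-0.68). RPE, the ribulose-phosphate epimerase, had -1.36. Of 14 chlorophyll synthesis genes 1 was at or below -1 (7.14%, against 9.21% of all genes). It was CRD1 (AT3G56940), the cyclase that closes the chlorophyll ring, with 720.2 RPKM in low nitrogen leaf and 1336 RPKM in control leaf, against 10.4 RPKM in low nitrogen root and 6.63 RPKM in control root (-1.80). CH1 (CAO), which makes chlorophyll b, had -0.99, and HEME1 -0.83.

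Several genes of the low-oxygen response were higher in low nitrogen root, while their leaf values had no common direction. These genes respond in Arabidopsis to flooding through transcription factors that are broken down when oxygen is present. Of 13 genes, 7 had an organ difference of at most -1 (53.8%, against 9.21% of all genes) and 1 of at least 1 (7.69%, against 7.17%). In leaf the SAD6 homologue had a centred ratio of 1.56, while ATADH1 had -1.46 and a HUP54 homologue on scaffold01000 -1.19. In root 10 of 13 had a higher RPKM in low nitrogen (51.5% of all genes). The median centred ratio was 0.05 in leaf and 1.35 in root. The median organ difference was -1.68. The median level was 13.5 RPKM in low nitrogen leaf and 8.17 RPKM in control leaf, against 99.8 RPKM in low nitrogen root and 28.1 RPKM in control root. Another 15 copies of the list stayed below 5 RPKM in both leaf libraries.

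ATADH1 (AT1G77120, scaffold00793), alcohol dehydrogenase of ethanolic fermentation, had 2.52 RPKM in low nitrogen leaf and 6.58 RPKM in control leaf, against 450.4 RPKM in low nitrogen root and 38.5 RPKM in control root. Its organ difference was -4.96 (counting interval -7.11 to -3.68), with 5 and 14 recovered reads in the leaf libraries. Its neighbour of the same name did not enter, with 1.82 RPKM in low nitrogen leaf and 1.06 RPKM in control leaf, against 813 RPKM in low nitrogen root and 44.3 RPKM in control root. Both copies were thus root genes with a high value in low nitrogen. The plant cysteine oxidases destroy the transcription factors of this response when oxygen is present, and their own genes are among its targets. The PCO1 homologue (AT5G15120) had 13.4 RPKM in low nitrogen leaf and 8.03 RPKM in control leaf, against 69.0 RPKM in low nitrogen root and 5.74 RPKM in control root (-3.04). The PCO2 homologue (AT5G39890) had 13.0 RPKM in low nitrogen leaf and 6.92 RPKM in control leaf, against 114 RPKM in low nitrogen root and 19.9 RPKM in control root (-1.98). LBD41, a transcription factor of the same response, had 8.83 RPKM in low nitrogen leaf and 9.12 RPKM in control leaf, against 99.8 RPKM in low nitrogen root and 38.0 RPKM in control root (-1.75). In all of these the root value was higher in low nitrogen, and the leaf values were low in both libraries.

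The homologue of AT4G10265, a small protein of the low-oxygen response, was abundant in leaf too, with 436 RPKM in low nitrogen leaf and 329 RPKM in control leaf, against 167 RPKM in low nitrogen root and 22.2 RPKM in control root (-2.78, counting interval -3.26 to -2.43). Of the 2 homologues of AT4G27450, the one on scaffold01000 had 129 RPKM in low nitrogen leaf and 231 RPKM in control leaf, against 134 RPKM in low nitrogen root and 48.8 RPKM in control root (-2.61). The other, on scaffold00542, had 17.5 RPKM in low nitrogen leaf and 17.9 RPKM in control leaf, against 216 RPKM in low nitrogen root and 356 RPKM in control root (0.35), so the copies went in opposite directions in root. NSHB1, a non-symbiotic haemoglobin that scavenges nitric oxide, was the most abundant gene of the list, with 35.9 RPKM in low nitrogen leaf and 36.8 RPKM in control leaf, against 9361 RPKM in low nitrogen root and 7011 RPKM in control root (-0.79). PHI-1 (EXL1), the gene at or above 1, had 48.9 RPKM in low nitrogen leaf and 27.5 RPKM in control leaf, against 55.1 RPKM in low nitrogen root and 113 RPKM in control root (1.496).

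The ethylene list had a median nearer 0 than the low-oxygen list. Of 15 genes 2 were at or below -1 (13.3%, against 9.21% of all genes) and 0 at or above 1 (7.17% of all genes). The median organ difference was -0.25. Both genes at or below -1 were copies of EFE (ACO4, AT1G05010), the ACC oxidase that makes ethylene. On scaffold00542 it had 6.85 RPKM in low nitrogen leaf and 3.19 RPKM in control leaf, against 298 RPKM in low nitrogen root and 61.8 RPKM in control root (-1.68). On scaffold03904 it had 46.1 RPKM in low nitrogen leaf and 47.3 RPKM in control leaf, against 32.5 RPKM in low nitrogen root and 12.8 RPKM in control root (-1.65). The third copy, on scaffold01274, had 40.7 RPKM in low nitrogen leaf and 29.8 RPKM in control leaf, against 168 RPKM in low nitrogen root and 168 RPKM in control root (0.10). SIS1 (CTR1, AT5G03730), a repressor of ethylene signalling, had 6.4 RPKM in low nitrogen leaf and 4.31 RPKM in control leaf, against 17.7 RPKM in low nitrogen root and 7.65 RPKM in control root (-0.97). ERF1 (scaffold00581), a transcription factor that ethylene induces, was higher in low nitrogen in both organs.

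Few genes of nitrate transport entered. Of 23 copies, 4 did, while 3 reached 5 RPKM in leaf alone, 7 in root alone and 9 stayed below 5 RPKM in both organs. NRT1.5 (AT1G32450, scaffold02229), which loads nitrate into the xylem in Arabidopsis, had 6.35 RPKM in low nitrogen leaf and 2.83 RPKM in control leaf, against 148 RPKM in low nitrogen root and 47.9 RPKM in control root. With an organ difference of -1.004, it has a counting interval from -1.92 to 0.40, which includes 0. The NRT1.1 copy on scaffold03080, a homologue of the nitrate transporter and sensor, was close to control in both organs, with 40.3 RPKM in low nitrogen leaf and 34.6 RPKM in control leaf, against 29.1 RPKM in low nitrogen root and 31.5 RPKM in control root (-0.01).

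Nitrate and nitrite reduction differed between the organs in its enzymes. Of 11 genes, 2 were at or above 1 (18.2%, against 7.17% of all genes) and 2 at or below -1 (18.2%, against 9.21%). The median organ difference was 0.32. NR2 (NIA2), nitrate reductase, had 425 RPKM in low nitrogen leaf and 179.9 RPKM in control leaf, against 79.4 RPKM in low nitrogen root and 82.8 RPKM in control root. The organ difference was 0.96 (counting interval 0.81 to 1.123). NIR1, nitrite reductase, the enzyme of the next step, had 102 RPKM in low nitrogen leaf and 179 RPKM in control leaf, against 43.9 RPKM in low nitrogen root and 150.5 RPKM in control root (0.62). Nitrate reductase was thus higher in low nitrogen leaf, while nitrite reductase was lower in low nitrogen in both organs.

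Genes that feed electrons to nitrite reductase in tissues without light (FD3, G6PD1 and RFNR1) all had a lower RPKM in low nitrogen root. Their organ differences did not share a direction. FD3 (AT2G27510), a ferredoxin of non-green tissue, had 26.7 RPKM in low nitrogen leaf and 30.5 RPKM in control leaf, against 105 RPKM in low nitrogen root and 439 RPKM in control root on scaffold01365 (1.53). A second FD3 copy on scaffold03611 had an organ difference of the other sign (-1.64). Its leaf values were 1.69 RPKM in low nitrogen and 6.30 RPKM in control, and rest on 3 and 12 reads. In root it had 39.9 RPKM in low nitrogen and 44.1 RPKM in control. G6PD1 (AT5G35790), the plastid glucose-6-phosphate dehydrogenase, had 6.42 RPKM in low nitrogen leaf and 6.23 RPKM in control leaf, against 4.59 RPKM in low nitrogen root and 20.6 RPKM in control root (1.65). RFNR1, the root ferredoxin reductase, was lower in low nitrogen in both organs, with 3.97 RPKM in low nitrogen leaf and 9.74 RPKM in control leaf, against 29.0 RPKM in low nitrogen root and 98.5 RPKM in control root (0.28). SIR5 (CNX7, AT4G10100), of molybdenum cofactor synthesis, had 44.6 RPKM in low nitrogen leaf and 74.8 RPKM in control leaf, against 57.3 RPKM in low nitrogen root and 46.7 RPKM in control root (-1.36).

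The ammonium transport and assimilation genes had median centred ratios of 0.15 in leaf and 0.64 in root. In leaf 0 of 11 (4.63% of all genes) and in root 2 of 11 (4.55%) were higher in low nitrogen past 1. All 11 genes had a higher deposited RPKM in low nitrogen leaf than in control leaf (72.1% of all genes), and 8 of 11 in root (51.5% of all genes). The only gene with an organ difference past 1 was a copy of GSR 1 (GLN1;1, AT5G37600), a cytosolic glutamine synthetase. On scaffold00444 it had 18.4 RPKM in low nitrogen leaf and 12.8 RPKM in control leaf, against 4.35 RPKM in low nitrogen root and 18.6 RPKM in control root (2.02). The abundant GSR 1 copy on scaffold03746 had 92.0 RPKM in low nitrogen leaf and 72.1 RPKM in control leaf, against 613 RPKM in low nitrogen root and 502 RPKM in control root (-0.27). GLUS (GLU1), the ferredoxin-dependent glutamate synthase, had 119 RPKM in low nitrogen leaf and 62.5 RPKM in control leaf, against 73.6 RPKM in low nitrogen root and 25.4 RPKM in control root (-0.91). GDH1, a glutamate dehydrogenase, had 9.02 RPKM in low nitrogen leaf and 5.79 RPKM in control leaf, against 90.0 RPKM in low nitrogen root and 38.1 RPKM in control root (-0.99). For both GLUS and GDH1 the root ratio was the larger one.

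Nitrate signalling regulators held 4 of 16 genes at or above 1 (7.17% over all genes) and 2 at or below -1 (9.21%). Their median organ difference was 0.15, and 1.66 among the 6 that passed a filter of 20 RPKM, but -0.28 with no filter except a value above 0 in each organ. LBD37 (AT5G67420), a repressor of nitrate-responsive genes that nitrate itself induces in Arabidopsis, had 41.6 RPKM in low nitrogen leaf and 34.7 RPKM in control leaf, against 7.16 RPKM in low nitrogen root and 28.1 RPKM in control root (1.76, counting interval 1.22 to 2.602). The NIGT1/HHO family, also nitrate-induced repressors, had 2 such members. The homologue of AT1G68670 (HHO2) had 7.58 RPKM in low nitrogen leaf and 20.6 RPKM in control leaf, against 15.8 RPKM in low nitrogen root and 164 RPKM in control root (1.63). The homologue of AT1G25550 (HHO3) had 54.0 RPKM in low nitrogen leaf and 79.3 RPKM in control leaf, against 32.6 RPKM in low nitrogen root and 197 RPKM in control root (1.68). Both were lower in low nitrogen in both organs and by more in root. BT1 (AT5G63160), a scaffold protein that lowers nitrate uptake in Arabidopsis, had 62.0 RPKM in low nitrogen leaf and 30.8 RPKM in control leaf, against 21.2 RPKM in low nitrogen root and 44.8 RPKM in control root on scaffold04062 (1.69). Its copy on scaffold00953 had 16.6 RPKM in low nitrogen leaf and 33.1 RPKM in control leaf, against 8.44 RPKM in low nitrogen root and 12.1 RPKM in control root (-0.82).

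On the negative side were a calcium sensor and its kinase, which act together on nitrate and potassium uptake. SCABP5 (CBL1, scaffold03080) had 58.5 RPKM in low nitrogen leaf and 88.0 RPKM in control leaf, against 14.9 RPKM in low nitrogen root and 13.8 RPKM in control root (-1.02). SnRK3.23 (CIPK23, scaffold00542) had 5.15 RPKM in low nitrogen leaf and 8.40 RPKM in control leaf, against 8.98 RPKM in low nitrogen root and 7.73 RPKM in control root (-1.14). A second copy of each, on scaffold02995 and scaffold01119, had organ differences of -0.44 and -0.08. Amino acid carriers held 0 of 8 genes past 1 in either direction (16.4% of all genes). They lay between -0.69 for AAP6 and 0.44 for WAT1 on scaffold03356, with -0.58 for ATAAP3 on scaffold03159.

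The nitrogen salvage list was close to the background, with members on both sides. Of 20 genes for senescence, autophagy and nitrogen salvage, 2 were at or below -1 (10.0%, against 9.21% of all genes). At or above 1 was 1 gene (5.0%, against 7.17%), and the median organ difference was -0.13. The homologue of AT2G26230, uricase, which opens the ring of uric acid from purines, had 14.1 RPKM in low nitrogen leaf and 14.9 RPKM in control leaf, against 212 RPKM in low nitrogen root and 38.3 RPKM in control root (-2.86, counting interval -3.38 to -2.41). ATAAH (AT4G20070), which releases ammonium from allantoate further down the same route, had 10.8 RPKM in low nitrogen leaf and 9.28 RPKM in control leaf, against 25.2 RPKM in low nitrogen root and 7.21 RPKM in control root (-1.81). The root values of both were higher in low nitrogen. Other genes of the purine route were not alike, since XDH1 (AT4G34890), which makes uric acid, had 8.87 RPKM in low nitrogen leaf and 4.74 RPKM in control leaf, against 21.97 RPKM in low nitrogen root and 29.4 RPKM in control root (0.85). ALN (AT4G04955), between uricase and ATAAH, had 7.50 RPKM in low nitrogen leaf and 7.87 RPKM in control leaf, against 16.1 RPKM in low nitrogen root and 10.6 RPKM in control root (-0.97). NYE1 (SGR1, AT4G22920), which starts chlorophyll breakdown, had 13.7 RPKM in low nitrogen leaf and 5.22 RPKM in control leaf, against 8.53 RPKM in low nitrogen root and 10.49 RPKM in control root (1.17). NAP, a transcription factor of leaf senescence, had 22.9 RPKM in low nitrogen leaf and 5.96 RPKM in control leaf, against 19.96 RPKM in low nitrogen root and 14.3 RPKM in control root (0.99).

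Most phosphate starvation genes were lower in low nitrogen in both organs. A higher RPKM than in control was read for 4 of 18 in low nitrogen leaf (72.1% of all genes). In low nitrogen root it was read for 5 (51.5% of all genes). The phosphate supply was the same in both solutions. Of 18 genes, 11 were past -1 in leaf (6.39% of all genes) and 9 in root (3.4%). The median centred ratios were -1.74 in leaf and -0.91 in root. The median organ difference was -0.32, with 3 genes at or below -1 (9.21% of all genes) and 1 at or above 1 (7.17%). The homologue of AT1G17710 (PECP1), a phosphatase that frees phosphate from lipid head groups, was the member furthest from 0, with 24.2 RPKM in low nitrogen leaf and 124 RPKM in control leaf, against 30.1 RPKM in low nitrogen root and 20.2 RPKM in control root (-3.20). PAP3 (AT1G14700), a purple acid phosphatase, had 17.0 RPKM in low nitrogen leaf and 118 RPKM in control leaf, against 19.0 RPKM in low nitrogen root and 51.5 RPKM in control root (-1.67). SQD1 (AT4G33030), of sulfolipid synthesis, had 80.8 RPKM in low nitrogen leaf and 242 RPKM in control leaf, against 12.7 RPKM in low nitrogen root and 17.2 RPKM in control root (-1.49). SPX3, an intracellular phosphate sensor, was lower in low nitrogen in both organs, with 16.9 RPKM in low nitrogen leaf and 159 RPKM in control leaf, against 5.66 RPKM in low nitrogen root and 66.7 RPKM in control root (-0.14). PAP10, the gene at or above 1, had 12.4 RPKM in low nitrogen leaf and 10.7 RPKM in control leaf, against 7.20 RPKM in low nitrogen root and 17.55 RPKM in control root (1.04).

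Sulfate and iron genes held members past 1 on each side. The low nitrogen solution also held more sulfate, and the part of each ion cannot be told apart. Of 13 sulfate genes, 2 were at or above 1 (15.4%, against 7.17% of all genes) and 2 at or below -1 (15.4%, against 9.21%). CYSC1 (AT3G61440), a mitochondrial enzyme that detoxifies the cyanide formed with ethylene, had 7.50 RPKM in low nitrogen leaf and 10.6 RPKM in control leaf, against 147 RPKM in low nitrogen root and 41.5 RPKM in control root (-2.59). LSU2 (AT5G24660), a marker of sulfur limitation, was lower in low nitrogen in both organs, with 134 RPKM in low nitrogen leaf and 370 RPKM in control leaf, against 1.64 RPKM in low nitrogen root and 20.9 RPKM in control root. The organ difference of LSU2, 1.25, rests on 2 reads in low nitrogen root, and its counting interval from -0.17 to 5.00 includes 0. SERAT2;1 (AT1G55920), of cysteine synthesis, had 8.32 RPKM in low nitrogen leaf and 4.34 RPKM in control leaf, against 12.3 RPKM in low nitrogen root and 22.1 RPKM in control root (1.26). Among 7 iron genes, IRT1 (AT4G19690), the iron carrier of root cells, had 27.3 RPKM in low nitrogen leaf and 14.7 RPKM in control leaf, against 53.4 RPKM in low nitrogen root and 175 RPKM in control root (2.21). NRAMP4 (AT5G67330), which releases metals from the vacuole, had 29.5 RPKM in low nitrogen leaf and 72.1 RPKM in control leaf, against 14.6 RPKM in low nitrogen root and 17.0 RPKM in control root (-1.39), and YSL1 had -0.57.

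The lists of water channels and of ion transport had similar median ratios of low nitrogen to control in leaf and root. Aquaporins had a median centred ratio of -0.66 in leaf and -0.66 in root, and a median organ difference of 0.01 over 13 genes. TIP1;1, an aquaporin of the vacuole, was lower in both, with 943 RPKM in low nitrogen leaf and 2205 RPKM in control leaf, against 1123 RPKM in low nitrogen root and 2466 RPKM in control root (-0.43). At or above 1 was 1 of the 13 aquaporins (7.69%, against 7.17% of all genes). It was TMP-B (PIP1;3, AT1G01620) on scaffold00787, with 6.01 RPKM in low nitrogen leaf and 3.12 RPKM in control leaf, against 40.0 RPKM in low nitrogen root and 119 RPKM in control root (1.98, counting interval 0.40 to 4.15). Of 13 potassium, sodium and chloride transport genes 0 passed 1 in either direction (16.4% of all genes). Their median centred ratio was -0.12 in leaf and -0.11 in root. The lowest organ differences were -0.79 for NHX2, -0.74 for KC1 and -0.73 for KUP10. Among aquaporins, NLM2 had -0.62 and TIP2;2 0.48.

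Carbon storage genes had 3 of 13 members at or below -1 (23.1%, against 9.21% of all genes) and 0 at or above 1 (7.17% of all genes). The homologue of AT1G32900, granule-bound starch synthase, which makes amylose, had 297 RPKM in low nitrogen leaf and 711 RPKM in control leaf, against 81.7 RPKM in low nitrogen root and 24.2 RPKM in control root. Its organ difference was -3.31 (counting interval -3.59 to -3.12). SBE2.2 (AT5G03650), a starch branching enzyme, was lower in low nitrogen leaf, with 76.3 RPKM in low nitrogen leaf and 127 RPKM in control leaf, against 14.3 RPKM in low nitrogen root and 12.2 RPKM in control root (-1.28). GolS2 (AT1G56600), galactinol synthase, which starts the raffinose sugars that cucumber exports from leaves, was as abundant in low nitrogen leaf as in control leaf, with 2605 RPKM in low nitrogen leaf and 2739.7 RPKM in control leaf. In root it had 9.89 RPKM in low nitrogen and 3.1 RPKM in control, with an organ difference of -1.82.

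Phenylpropanoid genes, which lead to lignin and flavonoids, held 4 of 15 members at or below -1 (9.21% of all genes) and 0 at or above 1 (7.17%). The median organ difference was -0.33, and only 1 member passed a filter of 20 RPKM. PAL1 (AT2G37040), phenylalanine ammonia-lyase at the entry of the pathway, accounted for 3 of these genes, all on scaffold01001. One had 0.86 RPKM in low nitrogen leaf and 6.89 RPKM in control leaf, against 69.7 RPKM in low nitrogen root and 45.0 RPKM in control root (-3.04). Another had 1.67 RPKM in low nitrogen leaf and 5.31 RPKM in control leaf, against 19.5 RPKM in low nitrogen root and 8.99 RPKM in control root (-2.61). The most abundant in leaf had 9.81 RPKM in low nitrogen leaf and 23.4 RPKM in control leaf, against 55.5 RPKM in low nitrogen root and 52.5 RPKM in control root (-1.59). All 3 were lower in low nitrogen leaf and somewhat higher in low nitrogen root, and neighbours of this kind may share reads. PAL2 on scaffold03904 went the other way in leaf, with 21.2 RPKM in low nitrogen leaf and 8.94 RPKM in control leaf, against 13.1 RPKM in low nitrogen root and 12.02 RPKM in control root (0.71). CCR2 (AT1G80820), of lignin synthesis, was listed at 0 in low nitrogen leaf and at 5.36 RPKM in control leaf, against 101 RPKM in low nitrogen root and 91.4 RPKM in control root, so that its value of -3.15 depends on the pseudocount.

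Cell wall genes were close to the background, with 3 of 21 at or below -1 (14.3%, against 9.21% of all genes), 1 at or above 1 (4.76%, against 7.17%) and a median of 0.02. EXPL2 (AT4G38400) on scaffold00926, an expansin-like protein, had 85.4 RPKM in low nitrogen leaf and 55.1 RPKM in control leaf, and was at 18.7 RPKM in low nitrogen root while listed at 0 in control root. The value of -4.01 therefore depends on the pseudocount. A neighbouring EXPL2 copy had 33.2 RPKM in low nitrogen leaf and 29.2 RPKM in control leaf, against 167 RPKM in low nitrogen root and 271 RPKM in control root (0.53). IXR1 (CESA3, AT5G05170) on scaffold01024, a subunit of cellulose synthase, had 25.7 RPKM in low nitrogen leaf and 24.7 RPKM in control leaf, against 11.7 RPKM in low nitrogen root and 3.18 RPKM in control root (-1.88). XTR2 (XTH28, AT1G14720), which cuts and rejoins xyloglucan, had 26.3 RPKM in low nitrogen leaf and 51.2 RPKM in control leaf, against 69.5 RPKM in low nitrogen root and 68.1 RPKM in control root (-1.30).

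Of 17 clock and light signalling genes, 3 were at or above 1 (7.17% over all genes) and 2 at or below -1 (9.21% over all genes). The time of day of sampling is not stated. The median organ difference was 0.54, and 0.02 with a filter of 1 RPKM. ELF4 (AT2G40080), of the evening complex, had 127 RPKM in low nitrogen leaf and 17.78 RPKM in control leaf, against 6.84 RPKM in low nitrogen root and 5.10 RPKM in control root (2.07). TOC1 (AT5G61380), another evening gene, had 19.1 RPKM in low nitrogen leaf and 6.89 RPKM in control leaf, against 9.41 RPKM in low nitrogen root and 10.7 RPKM in control root (1.19). LHY1 (LHY, AT1G01060), a morning gene, went the other way, with 3.56 RPKM in low nitrogen leaf and 7.56 RPKM in control leaf, against 36.7 RPKM in low nitrogen root and 31.2 RPKM in control root (-1.47). The third gene at or above 1 was an RVE6 homologue (AT5G52660) on scaffold01335, with 13.0 RPKM in low nitrogen leaf and 3.64 RPKM in control leaf, against 21.3 RPKM in low nitrogen root and 19.7 RPKM in control root (1.15). The second at or below -1 was a CDF3 homologue (AT3G47500) on scaffold00953, with 62.2 RPKM in low nitrogen leaf and 60.5 RPKM in control leaf, against 23.8 RPKM in low nitrogen root and 12.4 RPKM in control root (-1.18). GI, also an evening gene, was higher in both organs and by more in leaf, with 193 RPKM in low nitrogen leaf and 62.1 RPKM in control leaf, against 68.4 RPKM in low nitrogen root and 49.9 RPKM in control root on scaffold03611 (0.84).

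Hormone genes held members on both sides. Of 18 abscisic acid genes, 4 were at or below -1 (22.2%, against 9.21% of all genes) and 1 at or above 1 (5.56%, against 7.17%). The median was 0.10. The receptor RCAR12 (PYL1, AT5G46790) had 30.2 RPKM in low nitrogen leaf and 45.2 RPKM in control leaf, against 11.7 RPKM in low nitrogen root and 3.21 RPKM in control root (-2.49). The receptor RCAR10 (PYL4, AT2G38310) on scaffold01225 had 29.7 RPKM in low nitrogen leaf and 17.7 RPKM in control leaf, against 47.4 RPKM in low nitrogen root and 12.3 RPKM in control root (-1.49). SRK2E (OST1, AT4G33950), the kinase downstream of the receptors, had 19.5 RPKM in low nitrogen leaf and 3.64 RPKM in control leaf, against 169 RPKM in low nitrogen root and 135 RPKM in control root (1.49). Other receptor genes of the list lay between -1.23 for a PYL8 homologue (AT5G53160) on scaffold00164 and 0.21 for the PYL9 homologue (AT1G01360), and the kinase SNRK2.3 (AT5G66880) had 0.29. The homologue of ABA1 (AT5G67030), of abscisic acid synthesis, had -1.01.

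Of 16 cytokinin genes 3 were at or above 1 (18.8%, against 7.17% of all genes) and 0 at or below -1 (9.21% of all genes). The median was -0.04. IPT5 (AT5G19040), which makes the first cytokinin precursor, had 13.7 RPKM in low nitrogen leaf and 5.01 RPKM in control leaf, against 3.88 RPKM in low nitrogen root and 7.29 RPKM in control root (1.72). The homologue of AT4G35190 (LOG5), which releases the active hormone, had 179 RPKM in low nitrogen leaf and 48.9 RPKM in control leaf, against 6.41 RPKM in low nitrogen root and 5.27 RPKM in control root (1.28, counting interval -0.53 to 2.99, which includes 0). CKX7 (AT5G21482), a cytokinin oxidase, had 6.62 RPKM in low nitrogen leaf and 10.9 RPKM in control leaf, against 9.22 RPKM in low nitrogen root and 43.9 RPKM in control root (1.16). Other synthesis and activation genes of the list lay between -0.83 for the LOG3 homologue (AT2G37210) on scaffold01144 and 0.01 for the LOG8 homologue (AT5G11950). Of 15 jasmonate genes 1 was at or above 1 (6.67%, against 7.17% of all genes) and 2 at or below -1 (13.3%, against 9.21%). The median was -0.43. ZBF1 (MYC2, AT1G32640), the main transcription factor of the response, had 83.5 RPKM in low nitrogen leaf and 70.3 RPKM in control leaf, against 141 RPKM in low nitrogen root and 66.7 RPKM in control root (-1.16). The repressor TIFY10B (AT1G74950) had -1.14. The 2 copies of the repressor TIFY9 (AT5G13220) went the other way, with 2.38 and 0.83.

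Of 16 genes for heat shock and folding, 2 were at or above 1 (12.5%, against 7.17% of all genes). At or below -1 was 1 gene (6.25%, against 9.21%). The median centred ratios were -0.01 in leaf and -0.22 in root. A higher RPKM in low nitrogen than in control was read for 11 of 16 in leaf, against 72.1% of all genes, and for 3 of 16 in root, against 51.5%. J8 (AT1G80920), a chloroplast co-chaperone, had 317 RPKM in low nitrogen leaf and 196 RPKM in control leaf, against 198 RPKM in low nitrogen root and 519.9 RPKM in control root (1.74). HSP70-1 (AT5G02500) on scaffold00154 had 53.7 RPKM in low nitrogen leaf and 28.6 RPKM in control leaf, against 55.2 RPKM in low nitrogen root and 85.6 RPKM in control root (1.17). HSP21 (AT4G27670) on scaffold01376, a small heat shock protein of the chloroplast, went the other way, with 26.4 RPKM in low nitrogen leaf and 48.0 RPKM in control leaf, against 11.1 RPKM in low nitrogen root and 8.44 RPKM in control root (-1.53).

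Phloem genes, which mark the sugar-conducting tissue, held 1 of 7 members at or below -1 (9.21% of all genes) and 0 at or above 1 (7.17%). PP2-A1 (AT4G19840), a phloem lectin, had 28.0 RPKM in low nitrogen leaf and 266 RPKM in control leaf, against 14.4 RPKM in low nitrogen root and 48.0 RPKM in control root on scaffold01154 (-1.86). Its copies on scaffold03443 and scaffold00046 had organ differences of -0.61 and -0.90. WDY (APL, AT1G79430), which sets phloem identity, had -0.96 for its copy on scaffold00998 and 0.30 for its other copy. The 2 homologues of AT3G01680 had -0.15 and 0.38. In leaf 1 of the 7 genes was higher in low nitrogen past 1 (4.63% of all genes) and 3 were lower (6.39%). In root 1 was higher (4.55%) and 2 were lower (3.4%). All 3 copies of PP2-A1 were lower in low nitrogen in both organs and by more in leaf. Summed over all copies in the table, the phloem list had 354 RPKM in low nitrogen leaf and 769 RPKM in control leaf, against 973 RPKM in low nitrogen root and 1214 RPKM in control root. Its part in other leaf differences was not tested.

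Past 1 in opposite directions were 27 genes lower in low nitrogen leaf and 4 higher in low nitrogen leaf. The 27 were 5.23% of the genes lower in leaf, near the 4.55% of all genes that were higher in root. The 4 were 1.07% of the genes higher in leaf, against 3.4% of all genes lower in root. Of the 4 genes higher in low nitrogen leaf and lower in low nitrogen root, RTFL12 (AT4G13395), of a family of small peptides that limit cell proliferation, had 19.2 RPKM in low nitrogen leaf and 2.62 RPKM in control leaf, against 20.7 RPKM in low nitrogen root and 72.8 RPKM in control root (3.91). TIFY9 (JAZ10, AT5G13220, scaffold00919), a repressor of jasmonate signalling, had 24.1 RPKM in low nitrogen leaf and 7.99 RPKM in control leaf, against 3.68 RPKM in low nitrogen root and 10.0 RPKM in control root (2.38). CYP714A1 (AT5G24910), a cytochrome P450 whose Arabidopsis relative inactivates gibberellins, had 154 RPKM in low nitrogen leaf and 46.5 RPKM in control leaf, against 24.7 RPKM in low nitrogen root and 51.1 RPKM in control root (2.39). FLA8 (AT2G45470), a fasciclin-like arabinogalactan protein of the cell surface, had 101 RPKM in low nitrogen leaf and 38.1 RPKM in control leaf, against 48.0 RPKM in low nitrogen root and 118 RPKM in control root (2.33). FLA8 and CYP714A1 are the abundant ones, and their counting intervals ran from 2.01 to 2.74 and from 2.17 to 2.71.

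On the other side, DIR1 (AT5G48485), a lipid transfer protein of systemic resistance, had 25.7 RPKM in low nitrogen leaf and 67.8 RPKM in control leaf, against 123 RPKM in low nitrogen root and 13.7 RPKM in control root (-4.78, counting interval -5.59 to -4.22). The homologue of AT2G41480, a class III peroxidase, had 1.26 RPKM in low nitrogen leaf and 10.6 RPKM in control leaf, against 53.6 RPKM in low nitrogen root and 7.96 RPKM in control root (-5.30, counting interval -8.16 to -4.54). KDR (KIDARI, AT1G26945) on scaffold00055, a small helix-loop-helix protein of light signalling, had 2.83 RPKM in low nitrogen leaf and 12.3 RPKM in control leaf, against 5.83 RPKM in low nitrogen root and 1.22 RPKM in control root (-3.75), with at most 14 reads in any library. A gene on scaffold00464 without a homologue was listed at 0 in low nitrogen leaf and at 7.84 RPKM in control leaf, against 34.7 RPKM in low nitrogen root and 2.72 RPKM in control root. This organ difference, -6.74, was the lowest of all and depends on the pseudocount.

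Among the 12 lowest organ differences of genes with a homologue, most were carried by root. The homologue of AT3G62550, of the universal stress protein family, had 50.3 RPKM in low nitrogen leaf and 37.7 RPKM in control leaf, against 205 RPKM in low nitrogen root and 12.4 RPKM in control root (-3.88). The homologue of AT2G39510 (UMAMIT14), an exporter of amino acids, had 8.53 RPKM in low nitrogen leaf and 8.25 RPKM in control leaf, against 21.2 RPKM in low nitrogen root and 0.99 RPKM in control root (-3.77). The homologue of AT2G22070, a pentatricopeptide repeat protein, had 50.6 RPKM in low nitrogen leaf and 29.5 RPKM in control leaf, against 35.2 RPKM in low nitrogen root and 0.32 RPKM in control root (-4.35), with 1 read in control root. In each of these the root value was higher in low nitrogen, and the leaf ratio was the smaller one. The homologue of AT5G25940 had 6.14 RPKM in low nitrogen leaf and 7.93 RPKM in control leaf, against 233 RPKM in low nitrogen root and 19.6 RPKM in control root (-4.17). The homologue of AT2G41250 was lower in low nitrogen in leaf and higher in root, with 14.1 RPKM in low nitrogen leaf and 68.0 RPKM in control leaf, against 17.5 RPKM in low nitrogen root and 6.12 RPKM in control root (-3.91). Further class III peroxidases belonged to the 12, a family noticed after the values were seen. The homologue of AT5G06730 had 15.4 RPKM in low nitrogen leaf and 33.9 RPKM in control leaf, against 164 RPKM in low nitrogen root and 38.2 RPKM in control root (-3.50). The homologue of AT4G25980 had 1.06 RPKM in low nitrogen leaf and 5.19 RPKM in control leaf, against 11.1 RPKM in low nitrogen root and 3.43 RPKM in control root (-3.37).

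**Figure D5:**
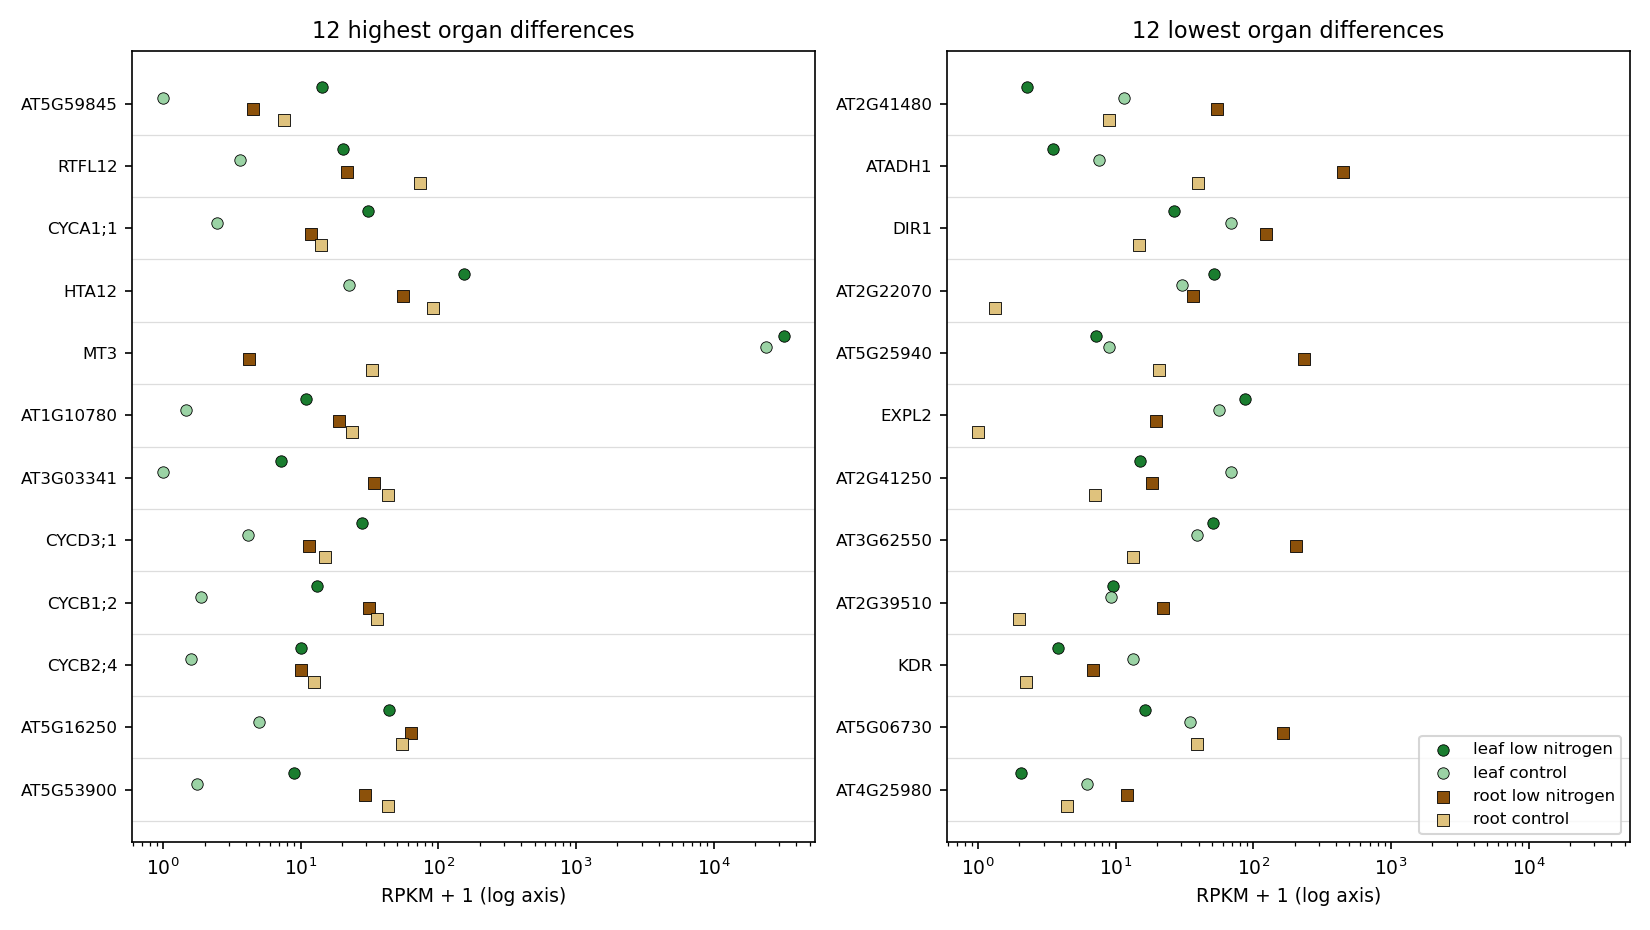
RPKM plus 1 in each of the 4 libraries, on a log axis, for the 12 highest (left) and 12 lowest (right) organ differences among genes with a homologue. On the left control leaf is mostly the lowest point, and on the right low nitrogen root lies above control root for every gene, as for ATADH1 with 450.4 and 38.5 RPKM.

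Among the 12 highest, the low value was mostly in control leaf. The homologue of AT5G59845, of the gibberellin-regulated peptides, was at 13.2 RPKM in low nitrogen leaf and listed at 0 in control leaf, and had 3.50 RPKM in low nitrogen root and 6.59 RPKM in control root, so that its value of 4.25 depends on the pseudocount. The exception was MT3 (AT3G15353), a metallothionein that binds metals, whose leaf values were alike, with 32371 RPKM in low nitrogen leaf and 24059 RPKM in control leaf, against 3.22 RPKM in low nitrogen root and 31.8 RPKM in control root. The organ difference of 3.05 lies in root, where it rests on 8 reads in low nitrogen and 84 in control. The homologue of AT5G16250 had 42.7 RPKM in low nitrogen leaf and 3.96 RPKM in control leaf, against 62.0 RPKM in low nitrogen root and 53.8 RPKM in control root (2.6), with the low value in control leaf. The homologue of AT1G10780 had 9.95 RPKM in low nitrogen leaf and 0.46 RPKM in control leaf, against 18.0 RPKM in low nitrogen root and 22.5 RPKM in control root (2.88). The homologue of AT5G53900 had 7.87 RPKM in low nitrogen leaf and 0.75 RPKM in control leaf, against 28.2 RPKM in low nitrogen root and 42.1 RPKM in control root (2.57). The homologue of AT3G03341 was at 6.19 RPKM in low nitrogen leaf, from 4 reads, and listed at 0 in control leaf, against 33.0 RPKM in low nitrogen root and 42.1 RPKM in control root, so that its 2.85 depends on the pseudocount.

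Some genes were past 1 in the same direction in both organs. MEE66 (AT2G02240, scaffold00557) had 4.52 RPKM in low nitrogen leaf and 219 RPKM in control leaf, against 7.55 RPKM in low nitrogen root and 765 RPKM in control root (0.83). TDT (AT5G47560), which carries malate into the vacuole, had 1.48 RPKM in low nitrogen leaf and 19.4 RPKM in control leaf, against 14.6 RPKM in low nitrogen root and 115 RPKM in control root (-0.48). ERF1 on scaffold00581 was higher in low nitrogen in both organs, with 11.3 RPKM in low nitrogen leaf and 1.82 RPKM in control leaf, against 47.4 RPKM in low nitrogen root and 7.30 RPKM in control root (-0.76). So was the homologue of AT1G43800, a stearoyl-ACP desaturase of the low-oxygen list, with 7.98 RPKM in low nitrogen leaf and 1.38 RPKM in control leaf, against 54.3 RPKM in low nitrogen root and 4.78 RPKM in control root (-1.68). MUTE (AT3G06120), named for a regulator of stomata, had 5.74 RPKM in low nitrogen leaf and 0.60 RPKM in control leaf, against 38.2 RPKM in low nitrogen root and 11.97 RPKM in control root (0.14), with 1 read in control leaf. A gene on scaffold01001 without a homologue was lower in both but by more in leaf, with 21.8 RPKM in low nitrogen leaf and 859 RPKM in control leaf, against 5.16 RPKM in low nitrogen root and 34.2 RPKM in control root (-3.06). The homologue of AT1G12030 had 0.85 RPKM in low nitrogen leaf and 16.3 RPKM in control leaf, against 0.88 RPKM in low nitrogen root and 9.92 RPKM in control root (-1.02), from few reads. A gene on scaffold03611 without a homologue was higher in both, with 6.48 RPKM in low nitrogen leaf and 0.76 RPKM in control leaf, against 27.3 RPKM in low nitrogen root and 6.82 RPKM in control root (-0.11). Another on scaffold02511 had 12.5 RPKM in low nitrogen leaf and 2.12 RPKM in control leaf, against 7.05 RPKM in low nitrogen root, and was listed at 0 in control root, so that its organ difference depends on the pseudocount.

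Copies of one gene could lie on opposite sides. Of 774 Arabidopsis homologue IDs held by at least 2 of the 8070 genes, 254 had some copy past 1, and 11 had copies past 1 on both sides. The median range between copies was 0.66. KDR spanned the widest range, since its copy on scaffold01142 had 51.9 RPKM in low nitrogen leaf and 48.5 RPKM in control leaf, against 5.42 RPKM in low nitrogen root and 16.2 RPKM in control root (1.19). The homologues of AT5G02230, of a family of hydrolases, followed. The copy on scaffold00696 had 27.5 RPKM in low nitrogen leaf and 11.9 RPKM in control leaf, against 114 RPKM in low nitrogen root and 355 RPKM in control root (2.43). On scaffold01225 it had 123 RPKM in low nitrogen leaf and 108 RPKM in control leaf, against 143 RPKM in low nitrogen root and 48.3 RPKM in control root (-1.70). These copies differed from control mainly in root, lower in low nitrogen on scaffold00696 and higher on scaffold01225. A further copy, on scaffold00997, had 281 RPKM in low nitrogen root and 610 RPKM in control root (1.14). In leaf that copy had 48.2 RPKM in low nitrogen and 37.4 RPKM in control. GSTU8 (AT3G09270), a glutathione transferase, had 5 copies from -1.75 to 1.396, and the homologues of AT1G44760 had 1.91 and -1.01.

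Over the 8070 genes, with 1 library per group, the contrast between the organs was smaller on low nitrogen. The filter let in 878 genes through low nitrogen leaf alone and 204 through control leaf alone. Genes of the first kind are low in control leaf, and their part in this contrast was not tested. The median absolute leaf to root log2 ratio, centred within each treatment, was 0.74 on low nitrogen and 0.84 on control. Of the 8070 genes, 1600 were at least 1 log2 unit higher in leaf on low nitrogen (19.8%) and 1806 on control (22.4%), and 1487 were higher in root on low nitrogen (18.4%) and 1611 on control. Of these, 1255 were leaf-high on both and 1019 root-high on both. The levels of leaf and root had a Pearson correlation across genes of 0.54 on low nitrogen and 0.52 on control.

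Few genes were past 1 towards one organ on low nitrogen and towards the other on control. For 6 genes the leaf level was the higher one on low nitrogen and the root level on control. They were CYCA1;1, CYCD3;1 on scaffold02135, HTA12 on scaffold03837, the H3.1 homologue with 203 RPKM in low nitrogen leaf, FLA8 and the homologue of AT5G59845. CYCA1;1 had a leaf to root log2 ratio of 1.59 on low nitrogen and -1.94 on control. For 10 genes the root level was the higher one on low nitrogen and the leaf level on control. DIR1 was the furthest of them with a homologue, at -2.01 on low nitrogen and 2.79 on control. The others included the homologues of AT3G62550, AT2G39510 and AT4G25980 given above.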

How the data were processed

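RNA of leaf and root was sequenced in 4 libraries, 1 per group. The authors deposited RPKM values per gene in 1 table, with an Arabidopsis homologue ID and a scaffold per gene. Bowtie 0.12.9 is named per the submitters' processing notes. The counting program and genome build are among the points not given in the sources used here, and no coordinates or sequences are printed. The filter kept genes that averaged at least 5 RPKM and reached 5 RPKM in 1 library of each organ, a pseudocount of 1 RPKM was added, and log2 ratios were centred on their medians. Whole reads were recovered from the spacing of the RPKM values, to a tolerance of 0.00501 RPKM, for 87.1% of genes, and 52.8% came out whole after shuffling. Exact 95% intervals use these reads and cover counting error only.

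With 1 library per group there is no test and no p-value, and every count is of values past an absolute log2 value of 1. Gene lists were matched by homologue ID. The members and lists were chosen with earlier results of these data known. The text names the 12 highest and 12 lowest organ differences with a homologue, 5 genes each way past 1 in opposite and in the same directions, every nitrogen list member past 1, up to 3 members furthest from 0 of each other list, and copies of the 5 homologue IDs with the widest range. Further list members, and the genes whose leaf to root order differed between treatments, were named after their values were seen. The calculation was run on simulated counts drawn at the deposited gene lengths. Such counts do not test the recovered reads of genes whose RPKM rests on another length. Alternatives were pseudocounts of 0.1 and 5 RPKM, other filters, other centring and sums over homologues. Calculations used Python 3.11.15, numpy 2.4.6, pandas 2.3.3 and scipy 1.17.1, and figures matplotlib 3.10.9.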

Additional observations from a re-analysis of the deposited data

Results flagged for a closer look

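Among the genes past 1 in opposite directions in leaf and root, 9 are named here, and the difference between the organs was not tested. Higher in low nitrogen leaf and lower in low nitrogen root were RTFL12 with an organ difference of 3.91, CYP714A1 with 2.39, TIFY9 with 2.38 and FLA8 with 2.33. Lower in low nitrogen leaf and higher in low nitrogen root were a gene on scaffold00464 without a homologue with -6.74, the homologue of AT2G41480 with -5.30, DIR1 with -4.78, KDR on scaffold00055 with -3.75 and the homologue of AT1G32900 with -3.31.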

How the results depend on the processing

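No paired analysis was possible because each group has 1 library, and for the same reason no replicate could be left out. Counts are given as organ difference at or above 1, then at or below -1, then higher in leaf and lower in root, lower in leaf and higher in root, higher in both and lower in both. With a pseudocount of 5 RPKM they were 302, 473, 2, 8, 7 and 50, and the median absolute leaf to root ratio was 0.61 on low nitrogen and 0.69 on control. With a pseudocount of 0.1 RPKM the genes higher in leaf and lower in root numbered 8 and those higher in both 49. With no filter but a value above 0 in each organ they were 1373, 1706, 26, 68, 87 and 131. With a filter at 1 RPKM they were 1071, 1358, 22, 58, 67 and 128. With a filter at 20 RPKM they were 203, 274, 2, 6, 7 and 41, and 37 of 37 named genes still measured stayed past 1. With at least 5 RPKM in all 4 libraries 380 genes were at or above 1, the other 4 counts were 2, 9, 14 and 47, and 54 of 55 named genes stayed past 1. A filter changes the organ difference of a gene only through the centring. How many named genes stayed past 1 under a filter was therefore nearly fixed in advance. Without centring the counts, in the order above, were 1301, 372, 11, 17, 76 and 48. Of the 102 named genes past 1, 76 stayed past it when summed over homologues, 87 with a pseudocount of 5 RPKM and 92 without centring. The next counts are of all 127 named genes, also those not past 1 in the main setting, and leave aside genes past 1 in both settings. Summed over homologues, 27 moved by at least 0.5 log2 units and 1 was reversed. The reversed one was FD3, with an organ difference of 1.03 in place of -1.64 for its copy on scaffold03611, since the sum includes its other copy. Fewer genes enter under a stricter filter, and other causes were not tested. Depth limits genes with few reads.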
